A study of Mus musculus with 2 samples.

Results

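The genes described here are 9 acute-phase genes of the mouse: the serum amyloid A genes Saa1, Saa2 and Saa3, lipocalin 2 (Lcn2), haptoglobin (Hp), orosomucoid 1 (Orm1), ceruloplasmin (Cp), the protease inhibitor Serpina3n and the metalloreductase Steap4. They were taken by symbol from the 31253 genes that the matrices list, and all 9 were found. The list was drawn up with their levels in the libraries in view, so the differences between the libraries are given as descriptions and nothing is supported with them. Pancreatic cells of mice were profiled with BD Rhapsody, a single-cell system that tags each captured RNA with a unique molecular identifier (UMI), so that a UMI count is a count of captured molecules. The series holds 2 libraries, each of which is a group of its own. The CP+EVs library came from pancreas of Cae-treated mice that also received extracellular vesicles, and the CP library from pancreas of mice treated with Cae alone. Both carry the condition label acute pancreatitis, while the title of the series names chronic pancreatitis and vesicles from physical exercise. Nothing used here gives the strain, age, dose, time, number of mice or any sort or gate. With 1 library a group nothing could be tested, and every difference below is one between these 2 libraries and not between the treatments.

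Acute-phase proteins are secreted in large amounts when tissue is injured or infected. The liver is their main source, where interleukin 6 acting through STAT3, and interleukin 1 and tumour necrosis factor acting through NF-kB and C/EBP factors, switch on their genes. Several of them are also made outside the liver: Saa3 by stromal cells and macrophages of inflamed mouse tissue, and Lcn2 by neutrophils, which store the protein in their granules, and by epithelium. In the pancreas, acinar and ductal cells are known to make acute-phase proteins during pancreatitis.

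The 3 Saa genes lie together on chromosome 7 of the mm10 build, in the positions of the GENCODE vM21 annotation. Saa3 is at chr7:46711998-46715700 on the minus strand, Saa1 at chr7:46740497-46742980 on the minus strand and Saa2 at chr7:46751790-46754313 on the plus strand. Lcn2 is at chr2:32384633-32388252 on the minus strand and Steap4 at chr5:7960457-7982213 on the plus strand. Hp is at chr8:109575128-109579172 (minus), Orm1 at chr4:63344560-63348163 (plus), Cp at chr3:19957054-20009145 (plus) and Serpina3n at chr12:104406729-104414329 (plus). The coding sequences of Saa1 and Saa2 were identical at 95.1% of 366 aligned bases, and Saa3 matched Saa1 at 79.1% of 358. Reads of Saa1 and Saa2 can therefore be assigned to the wrong member of the pair, and their separate counts are uncertain. Their promoter windows were alike in the same order, with 96.0% identity between Saa1 and Saa2 and 65.1% between Saa1 and Saa3.

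RefSeq promoter windows (build GRCm38.p6, the build that mm10 names, 250 bases before to 50 after the start) were found for 7 of the 9 genes, but not for Hp and Orm1. The windows are shown for Saa3 and Lcn2, the genes with the widest gaps between the libraries, for the near-identical pair Saa1 and Saa2 beside Saa3, and for Steap4, the only one in which all motifs searched were found. Each runs 5′ to 3′ along the strand of its gene, and capitals mark matches on either strand to the C/EBP motif TTNNGNAA, the STAT motif TTCNNNGAA and the NF-kB consensus motif.
Saa3: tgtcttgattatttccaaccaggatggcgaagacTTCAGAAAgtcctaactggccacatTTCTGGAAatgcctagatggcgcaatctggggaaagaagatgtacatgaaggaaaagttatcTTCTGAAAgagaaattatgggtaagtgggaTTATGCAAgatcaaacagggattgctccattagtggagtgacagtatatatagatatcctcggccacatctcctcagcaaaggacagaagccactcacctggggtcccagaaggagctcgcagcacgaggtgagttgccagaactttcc
Saa1: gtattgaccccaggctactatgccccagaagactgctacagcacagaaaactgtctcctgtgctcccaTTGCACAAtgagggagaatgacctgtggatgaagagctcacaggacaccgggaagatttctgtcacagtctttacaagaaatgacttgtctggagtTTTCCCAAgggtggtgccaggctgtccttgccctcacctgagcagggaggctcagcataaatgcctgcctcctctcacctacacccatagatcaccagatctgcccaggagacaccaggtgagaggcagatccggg
Saa2: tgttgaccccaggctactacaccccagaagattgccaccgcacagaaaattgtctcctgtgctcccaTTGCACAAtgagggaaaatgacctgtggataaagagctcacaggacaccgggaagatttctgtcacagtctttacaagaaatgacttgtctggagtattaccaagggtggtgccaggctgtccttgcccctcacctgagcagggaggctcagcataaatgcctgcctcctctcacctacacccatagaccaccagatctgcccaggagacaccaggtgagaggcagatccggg
Lcn2: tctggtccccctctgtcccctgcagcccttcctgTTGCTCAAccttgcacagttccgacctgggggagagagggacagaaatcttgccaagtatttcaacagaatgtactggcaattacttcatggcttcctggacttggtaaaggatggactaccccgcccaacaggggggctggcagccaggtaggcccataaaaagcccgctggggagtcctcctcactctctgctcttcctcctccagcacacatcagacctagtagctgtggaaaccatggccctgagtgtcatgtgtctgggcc
Steap4: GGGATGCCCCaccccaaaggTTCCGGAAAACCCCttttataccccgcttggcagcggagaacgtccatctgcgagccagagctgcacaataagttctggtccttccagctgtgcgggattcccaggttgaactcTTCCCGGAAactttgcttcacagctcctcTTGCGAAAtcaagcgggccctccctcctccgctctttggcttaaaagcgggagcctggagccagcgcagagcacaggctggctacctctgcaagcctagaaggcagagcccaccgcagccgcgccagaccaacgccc
The window of Saa3 spans chr7:46715627-46715926 (minus), that of Saa1 chr7:46742931-46743230 (minus), that of Saa2 chr7:46751583-46751882 (plus), that of Lcn2 chr2:32387690-32387989 (minus) and that of Steap4 chr5:7960222-7960521 (plus). The C/EBP letters occurred 4 times in the Saa3 window, 2 times in that of Saa1 and 1 time each in those of Saa2 and Lcn2, and at least once in 40.7% of all 32851 windows of that length. Steap4 held 2 NF-kB matches, 2 C/EBP matches, of which one overlaps an NF-kB match, and 1 STAT match. NF-kB and STAT letters occurred in 8.46% and 8.30% of all windows, and in no other window shown here. A match is a description of these letters and not a binding site.

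In CP+EVs, 8845 barcodes held 38532775 UMIs (median 2884), and in CP 13507 barcodes held 51652425 UMIs (median 1417). Of these, 8799 CP+EVs cells and 13409 CP cells were kept, and 118 barcodes occur in both libraries. The clusters split almost wholly by library, so that a class such as fibroblasts rests on cluster 6 in CP+EVs and cluster 2 in CP. CP+EVs held 2272 acinar-like, 1600 fibroblast-like, 142 mesothelial-like, 776 macrophage- or monocyte-like (cluster 7) and 23 neutrophil-like cells, and CP held 15, 2398, 441, 1631 and 2696 of these. For a tissue labelled as pancreas, 10 acinar markers reached 200 UMIs per 1000000 UMIs (CPM) in CP+EVs and none did in CP. The largest clusters left unnamed because markers of unrelated classes occurred together were cluster 4 in CP+EVs (1651 cells, mixed acinar and fibroblast markers) and cluster 0 in CP (3763 cells, mixed neutrophil and fibroblast markers). Of 10 hepatocyte markers, none reached 20 CPM in either library. Their sum was 23.3 CPM in CP+EVs and 12.9 CPM in CP, with 3 and 4 of them at 0, including the fibrinogen gene Fgb in both.

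Over all kept cells every member had a lower level in CP+EVs than in CP, and Saa3 had the widest gap. Levels are CPM of the kept cells, with exact Poisson intervals, and each fold has an exact interval given the sum of both counts. All intervals cover counting error only, at the 95% level. Saa3 had 109 UMIs in CP+EVs and 88003 in CP, or 2.83 CPM (2.33 to 3.42) against 1710 CPM (1699 to 1721). This is 604-fold lower in CP+EVs (500.5 to 735). A level over all cells moves with the number of source cells as well as with the RNA in each, so the classes are given separately below.

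**Figure D1:**
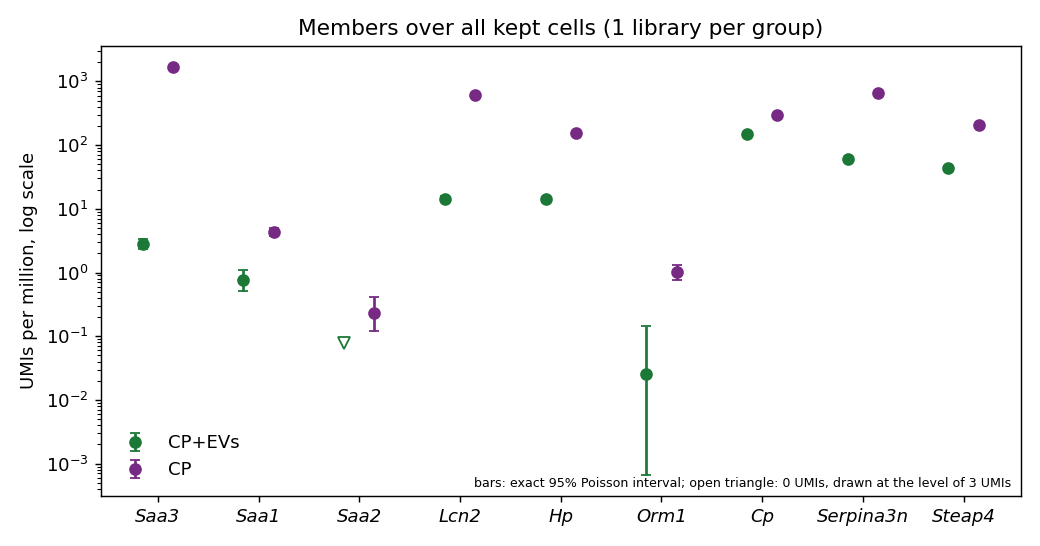
Level in CPM (log axis) of the 9 genes over all kept cells of CP+EVs (green) and CP (purple), 1 library each. Bars are exact 95% Poisson intervals, and the open triangle marks Saa2, which had 0 UMIs in CP+EVs and is drawn at the level of 3 UMIs. Every CP+EVs point lies below its CP point, with the widest gap for Saa3 (2.83 against 1710).

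Lcn2, which withholds iron from bacteria by binding their siderophores, had 554 UMIs (14.4 CPM) in CP+EVs and 30982 (602 CPM) in CP, 41.8-fold lower in CP+EVs (38.5 to 45.6). The haemoglobin scavenger Hp had 543 UMIs (14.1 CPM) in CP+EVs and 8013 (156 CPM) in CP, 11.04-fold lower (10.1 to 12.1). Serpina3n, an inhibitor of serine proteases, had 2315 UMIs (60.2 CPM) in CP+EVs and 33845 (658 CPM) in CP, 10.9-fold lower (10.5 to 11.4). Lcn2 had the widest gap of these 3 genes, below that of Saa3. Steap4, which reduces iron and copper at membranes, had 1659 UMIs (43.1 CPM) in CP+EVs and 10650 (207 CPM) in CP, 4.80-fold lower (4.56 to 5.06). The copper-binding ferroxidase Cp had 5832 UMIs (152 CPM) in CP+EVs and 15550 (302 CPM) in CP, 1.99-fold lower (1.93 to 2.06).

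The other members were close to the limit of detection. Saa1 had 29 UMIs (0.754 CPM) in CP+EVs and 222 (4.31 CPM) in CP, 5.73-fold lower (3.88 to 8.75). Of the 29, 1 cell held 12, which the interval does not take into account. Saa2 had 0 UMIs in CP+EVs and 12 in CP, which is at least 2.99-fold lower when CP+EVs is set at 3 UMIs over the library. Orm1, a plasma carrier of the lipocalin fold, had 1 UMI in CP+EVs and 52 in CP, 38.9-fold lower with an interval of 6.68 to 1565. Of the 9 members, 6 reached 20 CPM in 1 library with 20 UMIs in all and are called measured, and 3 did not. All 6 measured members were at least 1.5-fold lower in CP+EVs, beside 22.7% of the 7155 measured genes of the libraries, and none was 1.5-fold higher, beside 9.66%. The members were chosen on this contrast, so nothing is read from that count.

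In CP the Saa3 UMIs came mainly from mesothelial-like cells and fibroblasts. Mesothelial-like cells, which line the surface of the organ, held 19 Saa3 UMIs (16.6 CPM) in CP+EVs and 32522 (9261 CPM) in CP. In CP they had 36.96% of the gene's UMIs with 6.82% of all UMIs, and 73.7 Saa3 UMIs per cell. After each cell was thinned to 1000 UMIs, 1.64% of 122 such cells in CP+EVs and 94.7% of 303 in CP had a Saa3 UMI. Fibroblasts held 45 Saa3 UMIs (4.13 CPM) in CP+EVs and 35010 (2132 CPM) in CP, 39.8% of the CP total. Thinned, 0.275% of 1454 fibroblasts in CP+EVs and 46.7% of 1579 in CP had one. Cluster 7 of CP+EVs, the nearest there to macrophages, held 18 UMIs (3.57 CPM), and macrophages or monocytes of CP held 11141 (902 CPM), 12.7% of the CP total. The 3 classes together accounted for most CP UMIs of the gene. The unnamed cluster 0, with mixed neutrophil and fibroblast markers, stood at 1258 CPM in CP, above the macrophages. Eosinophils had 617 CPM there, plasma cells 419, neutrophils 338 and cluster 10 had 247. The lymphocytes of CP were the lowest, at 224 CPM in B cells and 196 CPM in T cells.

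Saa3 was unevenly spread over cells. In CP+EVs 56 cells (0.636%) had a Saa3 UMI, and 48 of them had 1 UMI only. The highest of them, with 21 UMIs, was a fibroblast. In CP 7363 cells (54.9%) had one, the highest cell held 1347 UMIs, and the 135 richest cells (1%) held 50.8% of all Saa3 UMIs. Among CP macrophages of cluster 5 thinned to 1000 UMIs, 18 cells (1.14%) had 10 or more Saa3 UMIs. These 18 cells held 39.8% of the Saa3 UMIs of the cells deep enough to be thinned, while the 1118 cells with none after thinning held 19.96%. The fibroblast markers summed to 2256 CPM in the 18 cells and 2369 CPM in the 1118, and the mesothelial markers to 26.3 and 29.6 CPM. Macrophage markers summed to 12739 and 16377 CPM, and the median depth was 12921 and 7144 UMIs. The doublet caller marked no cell in either library and was taken as not having worked, so mixed cells were not removed.

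Lcn2 shared fibroblasts with Saa3 as a source in CP, but the class with most of its UMIs was the neutrophils in both libraries. In CP+EVs, 204 of 554 Lcn2 UMIs (36.8%) came from 23 neutrophils, and 100 (18.1%, 166 CPM) from 110 ductal cells, in which 1 cell alone had 62. In CP, neutrophils held 48.9% of its UMIs (2711 CPM) and fibroblasts 31.1% (587 CPM). Cluster 18, a neutrophil group led by the granule genes Ngp, Camp and Ltf, had 9279 CPM of Lcn2 in 8 CP+EVs cells and 13783 CPM in 143 CP cells. Cluster 1, led by Cxcr2 and Il1f9, had 336 CPM in 15 CP+EVs cells and 1109 CPM in 2553 CP cells. So 143 of 2696 CP neutrophils held 9745 of the 15163 Lcn2 UMIs of that class. Mesothelial-like cells held 86 Lcn2 UMIs (74.9 CPM) in CP+EVs and 1895 (540 CPM) in CP. Fibroblasts held 50 (4.59 CPM) in CP+EVs and 9645 (587 CPM) in CP. No ductal class was found in CP, so Lcn2 of ductal cells cannot be compared.

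Hp and Orm1, both plasma carriers, were also found in neutrophils. Hp was 579 CPM in the 23 CP+EVs neutrophils (26 UMIs) and 311 CPM in those of CP, with 628 CPM in cluster 18 and 266 CPM in cluster 1 of CP. Fibroblasts had 36.5 CPM of Hp in CP+EVs and 234 CPM in CP, which were 73.3% and 47.9% of the Hp UMIs of each library. Cluster 7 of CP+EVs had 8.32 CPM and cluster 5 of CP, its macrophages, 108 CPM. Orm1 had 39 of its 52 CP UMIs in the 143 neutrophils of cluster 18 (55.2 CPM), and its only CP+EVs UMI lay in a fibroblast.

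Serpina3n, Cp and Steap4 had most of their UMIs in fibroblasts in both libraries. Serpina3n of fibroblasts was 158 CPM in CP+EVs and 1688 CPM in CP, or 74.3% and 81.9% of its UMIs, and that of mesothelial-like cells 119 and 658 CPM. Steap4 of fibroblasts was 120 CPM in CP+EVs and 394 CPM in CP, and that of mesothelial-like cells 152 and 499 CPM. In CP, Steap4 also stood at 316 CPM in neutrophil cluster 1, against 46.7 CPM in cluster 18, the reverse of the order of Lcn2. Cp of fibroblasts was 320 CPM in CP+EVs and 641 CPM in CP, and that of mesothelial-like cells 220 and 940 CPM. Cp had its highest class level in ductal cells of CP+EVs, with 1979 CPM and a UMI in 99 of 110 cells, so that 20.5% of its UMIs there came from 1.57% of the library's UMIs. Saa1 had 19 of 29 UMIs in fibroblasts in CP+EVs, and 132 of 222 in fibroblasts and 43 in mesothelial-like cells in CP. A single CP+EVs fibroblast held 12 of those 19, and a single CP mesothelial-like cell 19 of those 43. All 12 UMIs of Saa2 lay in CP fibroblasts.

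**Figure D2:**
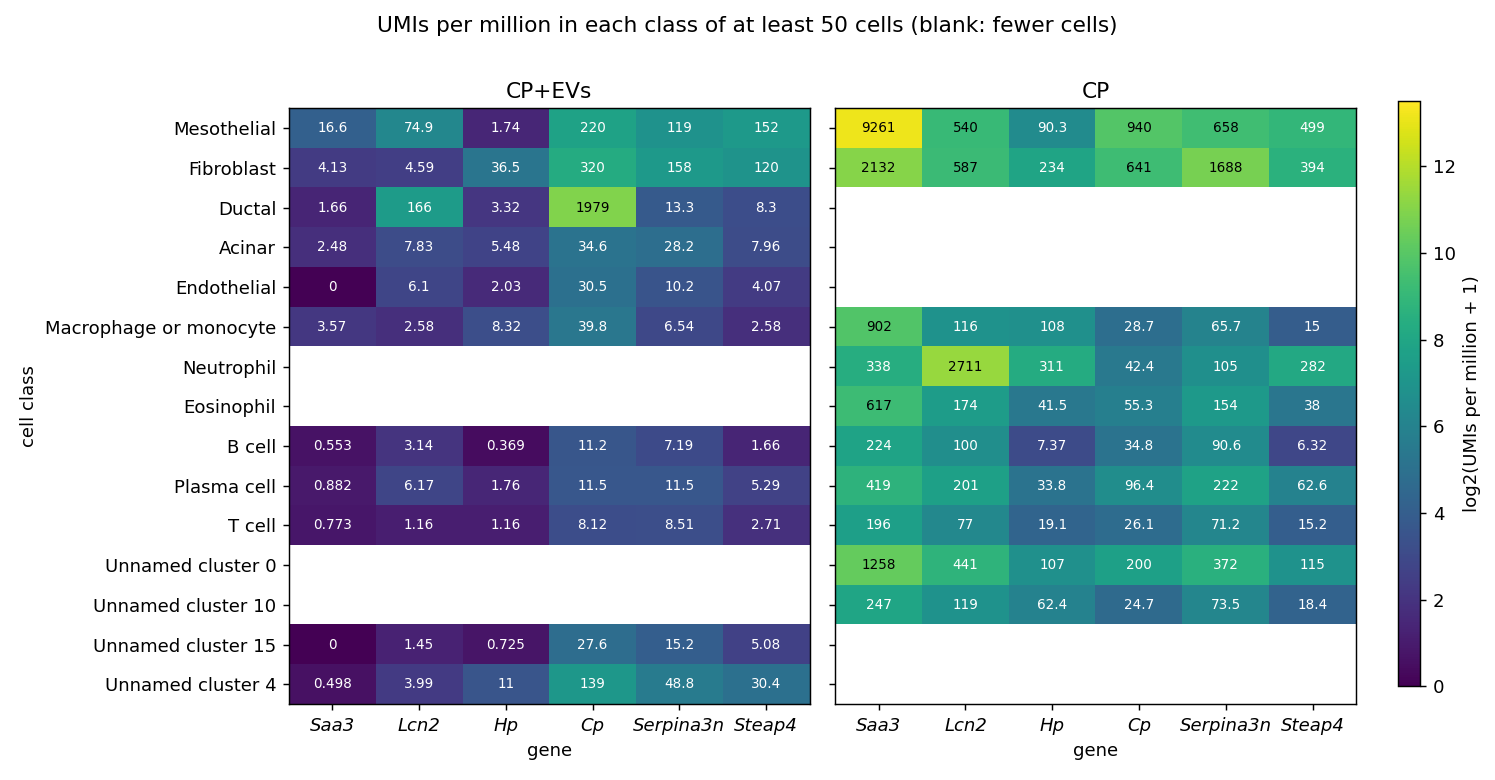
Level in CPM of the 6 measured members (columns) in every class or unnamed cluster (rows) with at least 50 cells, CP+EVs left and CP right. Colour gives log2(CPM + 1), the printed value is the level, blank rows have fewer cells, and the macrophage row of CP+EVs is cluster 7. Saa3 reaches 9261 in mesothelial-like cells and 2132 in fibroblasts of CP and stays under 20 in every class shown of CP+EVs.

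Within classes the gaps were again widest for Saa3. In fibroblasts it was 516-fold lower in CP+EVs (386 to 708) and Lcn2 128-fold lower, with 173 as the upper limit. Of the 45 Saa3 UMIs of CP+EVs fibroblasts, 1 cell held 21, and of the 50 Lcn2 UMIs 1 cell held 10. The intervals do not take this into account. Serpina3n was 10.7-fold lower in fibroblasts, Hp 6.40-fold, Saa1 4.61-fold, Steap4 3.28-fold and Cp the least, with 320 CPM in CP+EVs and 641 CPM in CP. In mesothelial-like cells Saa3 was 559-fold lower (358 to 929) and Hp 51.8-fold lower (14.2 to 430), from 2 and 317 UMIs. Of those 317, 1 CP cell held 101, which the interval does not take into account. After thinning, 5.28% of 303 CP mesothelial-like cells had an Hp UMI. Lcn2 was 7.20-fold lower in mesothelial-like cells, Serpina3n 5.55-fold, Cp 4.27-fold and Steap4 3.27-fold. The Cp value rests on the clustering: at Leiden resolution 0.5 its log2 ratio was -0.19, under 1.5-fold, against -2.09 here. So Lcn2 differed far more between the libraries in fibroblasts than in mesothelial-like cells. Hp went the other way round, by a mesothelial value that rests on few cells. The fibroblast markers summed to 15646 CPM in mesothelial-like cells of CP+EVs and 40496 CPM in those of CP, and their part in these values was not tested.

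The macrophage- or monocyte-like cells were compared by cluster number, cluster 7 for CP+EVs and cluster 5 for CP. Cluster 7 met the rule with 10 of the listed markers, and 5 macrophage markers stood there at 328% of the library level. The class next to it by marker score was the conventional dendritic cell. The 10 leading genes of cluster 7 were Gbp2b, Fcrls, Lyz1, Ear2, Dcstamp, Mgl2, Tnip3, Gfra2, Retnla and Cd226. Of these, Ear2 is on the eosinophil list used for naming, and none is on the macrophage list used for naming. The values of cluster 7 are therefore given as those of a cluster and not of a settled class. Saa3 was 253-fold lower in cluster 7 (160 to 427), Lcn2 44.9-fold, Hp 12.9-fold, Serpina3n 10.04-fold and Steap4 5.73-fold. Of the 18 Saa3 UMIs of cluster 7, 1 cell held 8, which the interval does not take into account. By CPM, Lcn2, Serpina3n and Steap4 of both clusters stood under 1.5 times the higher of the T cell and B cell levels. In CP+EVs they had 2.58, 6.54 and 2.58 CPM, against lymphocyte levels of 3.14, 8.51 and 2.71 CPM. In CP they had 116, 65.6 and 14.7 CPM, against 100, 90.6 and 15.2 CPM. The part of free RNA in the folds of these genes was not tested. Cp of cluster 5, at 28.5 CPM, stood under the 34.8 CPM of CP B cells. Cp had 39.8 CPM in cluster 7 and 28.5 CPM in cluster 5, a log2 ratio of 0.48, and was the only member with more than 1 UMI in CP+EVs that was higher there in any class compared. In T cells Saa3 was 253-fold lower (69.7 to 2096) and in B cells 405-fold lower (137 to 1982), from 2 and 3 UMIs in CP+EVs. Both classes serve below as the measure of free RNA, so these folds are not read as gaps within source cells.

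Counted over the members, 6 of 6 measured in fibroblasts of CP+EVs were lower by 1.5-fold or more (median log2 ratio -3.05), beside 13.6% of 6758 measured genes (median 0.05). In mesothelial-like cells it was 6 of 6 (median -2.65; at resolution 0.5 Cp does not reach that fold) beside 19.7% of 7388, between clusters 7 and 5 it was 4 of 5 (median -3.68) beside 21.5% of 6420, in T cells 4 of 4 beside 6.97% of 6860 (4.21% were higher) and in B cells 4 of 4 beside 17.7% of 6983. In plasma cells it was 6 of 6 beside 49.5% of 5342. T cells and B cells serve below as the measure of free RNA, so their counts are not those of source cells. Lcn2 and Serpina3n, counted between clusters 7 and 5, were within reach of free RNA by CPM in both libraries, as was Cp in CP. These are the levels that the choice of members used, so the counts are given without a reading.

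T cells and B cells are not known sources of these proteins, so their levels serve as a measure of free RNA, the RNA of broken cells that is captured with every cell. In CP+EVs the T cell level of Saa3 was 27.3% of the library level, from 2 UMIs. In CP the T cell level was 11.4% of the library level for Saa3, 12.8% for Lcn2, 12.2% for Hp, 10.8% for Serpina3n, 8.63% for Cp and 7.33% for Steap4. B cells gave 13.1% for Saa3, 16.6% for Lcn2, 13.8% for Serpina3n, 4.73% for Hp and 3.05% for Steap4. If every cell of CP carried the genes at such a level, these shares of each gene's UMIs would be free RNA. Of the marker lists of source classes in CP, fibroblast markers stood at 10.5% in T cells and 11.7% in B cells. Neutrophil markers stood at 13.1% and 15.8%, and the 11 macrophage or monocyte markers at 44.3% and 24.98%. These 11 include Ly6c2, Ccr2 and Plac8, and whether T cells and B cells express some of them was not tested. The macrophage shares are therefore not read as a measure of free RNA.

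**Figure D3:**
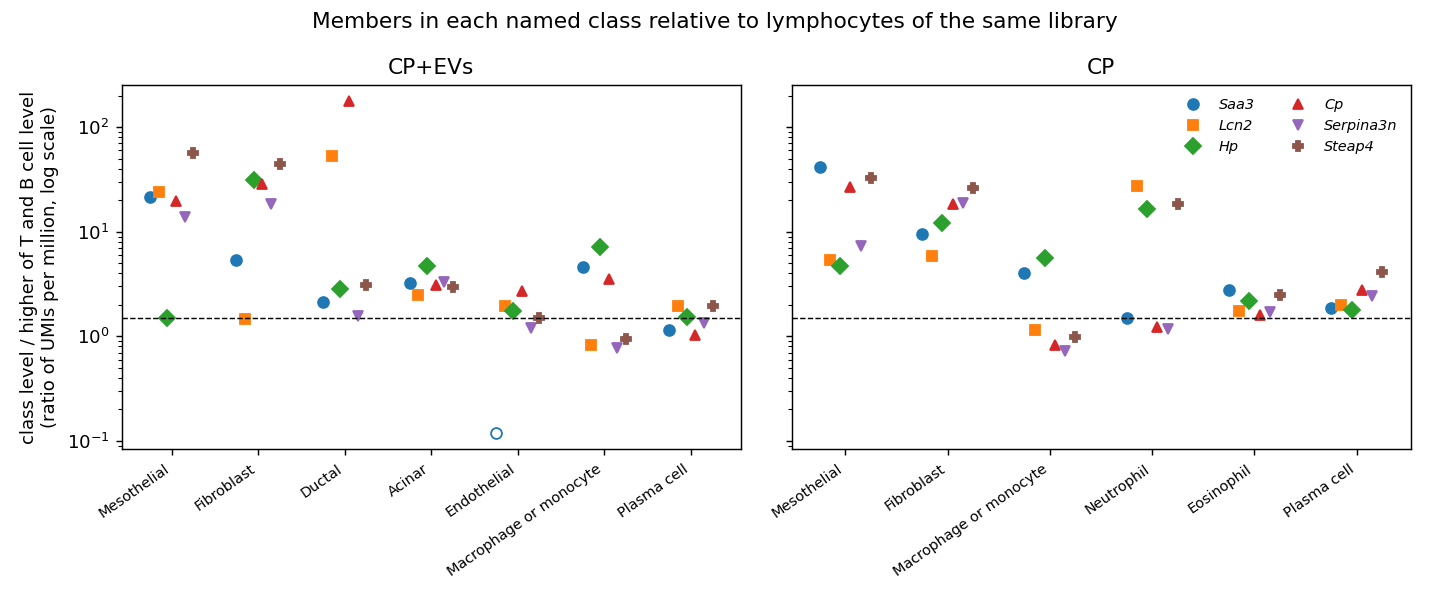
Level of each measured member in a named class divided by the higher of its T cell and B cell levels in the same library (ratio of CPM, log axis), CP+EVs left and CP right. The dashed line is 1.5, at or under which a level is read as within reach of free RNA, and the open circle is a level of 0. Saa3 of CP stands at 41.3 in mesothelial-like cells, 9.51 in fibroblasts and 4.02 in macrophages, and at 1.51 in neutrophils.

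A class level at or under 1.5 times the higher lymphocyte level was taken as within reach of free RNA. In CP+EVs, Saa3 stood at 21.4 times that level in mesothelial-like cells and 5.34 times in fibroblasts, over a lymphocyte level that rests on 2 and 3 UMIs. The class levels rest on 19 UMIs in 11 mesothelial-like cells and 45 UMIs in 10 fibroblasts, of which 1 held 21. Lcn2 of CP+EVs fibroblasts was within reach at 1.46 times by CPM but not at 1.75 times per cell, whereas that of ductal cells stood at 52.9 times and that of mesothelial-like cells at 23.9 times. In CP, Saa3 stood at 41.3 times the lymphocyte level in mesothelial-like cells, 9.51 times in fibroblasts and 4.02 times in macrophages, but at 1.51 times in neutrophils and 1.10 times in the unnamed cluster 10. Counted as UMIs per cell, the neutrophil value was 1.03 times. Lcn2 stood at 27.1 times in neutrophils, 5.87 times in fibroblasts and 5.39 times in mesothelial-like cells, and at 1.16 times in macrophages, where the value per cell was 3.28 times. Hp stood at 16.3 times in neutrophils, 12.3 times in fibroblasts and 5.66 times in macrophages. Cp, Serpina3n and Steap4 of CP macrophages, at 0.83, 0.73 and 0.99 times, were within reach of free RNA, although per cell, in macrophages with a median of 7011 UMIs, the values were 2.40, 2.01 and 2.16 times.

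A single source of free RNA keeps 2 genes in 1 ratio in every class that receives it. In CP there were 0.33 Saa3 UMIs per Col1a1 UMI in T cells, 0.34 in B cells and 0.34 in plasma cells. The same ratio was 0.43 in neutrophils, 0.44 in eosinophils and 0.43 in cluster 10. It was 0.14 in fibroblasts (0.137 to 0.140), 1.17 in mesothelial-like cells and 1.91 in macrophages (1.85 to 1.97). Saa3 per Serpina3n was 2.75 in T cells and 2.48 in B cells, beside 1.26 in fibroblasts, 13.7 in macrophages and 14.1 in mesothelial-like cells. Macrophages thus carried more Saa3 per UMI of these fibroblast-rich genes than the lymphocytes. Cp per Serpina3n was 0.37 in T cells, 0.38 in B cells, 0.40 in neutrophils, 0.44 in macrophages and 0.38 in fibroblasts, and 1.43 in mesothelial-like cells.

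Within CP fibroblasts the members were found together in the same cells. After thinning, Lcn2 was present in 19.0% of 842 cells with 0 Saa3 UMIs, 29.9% of 388 cells with 1 or 2, and 57.6% of 349 cells with 3 or more (exact 95% interval 52.2 to 62.8 for the last). Over the same bins Cp was present in 30.4%, 40.7% and 57.9% of cells, and Hp in 10.7%, 17.0% and 33.8%. Serpina3n was present in 67.0%, 70.9% and 77.4%, and Steap4 in 28.3%, 31.4% and 39.0%. Each share was higher in each higher Saa3 bin, and in percentage points the spread between bins was widest for Lcn2. In CP neutrophils Lcn2 was present in 39.9% of 1700 cells with 0 Saa3 UMIs and 42.5% of 40 cells with 3 or more, whose intervals overlap. Mesothelial-like cells of CP had Lcn2 in 18.2% of 44 cells with 1 or 2 Saa3 UMIs and 39.1% of 243 with 3 or more. Over these bins Steap4 was present in 22.7% and 38.7%, Cp in 61.4% and 63.4%, Serpina3n in 40.9% and 42.8%, and Hp in 4.55% and 5.76%. For all of these but Lcn2 the intervals of the bins overlapped.

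Fibroblasts were also split by their own genes, the adventitial genes Pi16, Dpp4, Cd55 and Cd248 against the matrix-remodelling genes Tnc, Cthrc1, Postn and Acta2. In CP, 428 cells with more remodelling UMIs had 799 CPM of Saa3, and 1362 cells with more adventitial UMIs had 2444 CPM. Lcn2 was 186 CPM in remodelling and 691 CPM in adventitial cells, Hp 102 and 270 CPM, Cp 340 and 714 CPM, Serpina3n 1097 and 1853 CPM, and Steap4 214 and 442 CPM. All 6 were thus lower in the remodelling cells of CP. The 608 CP cells with neither pattern, whose median depth was 779.5 UMIs, had 2514 CPM of Saa3, the highest of the 3 groups, and 548 CPM of Lcn2. In CP+EVs the order varied by gene. Cp was 392 CPM in 86 remodelling and 303 CPM in 1330 adventitial cells, Serpina3n 211 and 154 CPM, and Steap4 155 and 114 CPM, while Hp was 20.2 and 37.8 CPM, from 9 and 376 UMIs. Lcn2 (1 and 48 UMIs) and Saa3 (2 and 42 UMIs) had too few UMIs there to order. The median depth was 1746 UMIs in the remodelling and 5562 UMIs in the adventitial cells of CP, and its part in these values was not tested.

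Genes that act on or beside the members were taken from lists chosen for their roles. The lists were drawn up with earlier results of these data known. Counts from them, here and below, are therefore given as descriptions and nothing is supported with them. In fibroblasts, 12 of 13 measured innate genes known to be induced with the members passed 1.5-fold towards lower in CP+EVs and none towards higher (median log2 ratio -2.06, beside 0.05 over all genes, of which 13.6% were lower and 13.1% higher). They include Timp1, an inhibitor of matrix metalloproteinases (41.0 CPM in CP+EVs and 741 CPM in CP, 18.1-fold lower), and Cxcl5, which attracts neutrophils (1.93 and 32.8 CPM, 17.0-fold lower). The neutrophil genes S100a8 (7.34 CPM in CP+EVs and 300 CPM in CP) and S100a9 (6.98 and 349 CPM) were lower in the same cells. Relative to the whole library, fibroblasts carried them at 14.4% and 13.6% in CP+EVs and at 13.7% and 15.3% in CP, where T cells carried neutrophil markers at 13.1%.

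Of 12 measured inducing cytokines and receptors, 2 were higher and 6 lower in fibroblasts of CP+EVs (all genes there: 13.1% higher and 13.6% lower). Il6, the main inducer in liver, had 268 CPM in CP+EVs and 699 CPM in CP (2.60-fold lower), while Lifr, a receptor chain for leukaemia inhibitory factor, had 84.9 and 32.3 CPM (2.63-fold higher). Il1b and Tnf were 7.84-fold and 3.87-fold lower, and fibroblasts carried them at 12.1% and 17.7% of the library's level in CP+EVs and 12.7% and 18.5% in CP. Of 12 transcription factor and feedback genes, 2 were higher and 3 lower, beside the same shares of all genes. Cebpd, a C/EBP factor of the acute phase, had 1304 CPM in CP+EVs and 540 CPM in CP (2.41-fold higher), and Socs3, which limits STAT3 signalling, 758 and 354 CPM (2.14-fold higher). Stat3 had 129 and 254 CPM (1.96-fold lower) and Bcl3, a nuclear partner of NF-kB, 28.5 and 51.9 CPM (1.82-fold lower). Both lists held genes that were higher and genes that were lower, as did all genes there, and nothing is read from these counts.

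Of 12 iron-handling genes none was higher and 7 were lower in fibroblasts of CP+EVs (all genes there: 13.1% higher and 13.6% lower). Steap1, of the same family as Steap4, was 12.5-fold lower (2.29 and 28.7 CPM). The zinc and iron importer Slc39a14 was 3.41-fold lower (54.3 and 185 CPM), the phagosomal metal transporter Slc11a1 5.55-fold lower and the iron importer Slc11a2 1.82-fold lower. Only 3 of 25 liver acute-phase genes were measured in fibroblasts. Lbp, which hands lipopolysaccharide to its receptors, had 40.1 CPM in CP+EVs and 77.5 CPM in CP (1.93-fold lower), the iron carrier Trf 53.9 and 63.5 CPM, and complement C3 4179 and 4071 CPM. No gene of the Serpina3 family list reached the limit, so Serpina3n stood alone among its relatives. Of 5 SAA receptor genes measured, 1 was higher (Tlr4, 27.9 and 16.9 CPM) and 3 were lower: Cd14 (16.4 and 73.6 CPM), Tlr2 (15.1 and 30.9 CPM) and Ly96 (13.2 and 22.4 CPM).

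Between cluster 7 of CP+EVs and cluster 5 of CP, 10 SAA receptor genes were measured, of which 1 was higher and 7 lower in CP+EVs. The formyl peptide receptors Fpr1 and Fpr2 were 8.40-fold and 8.28-fold lower (12.3 and 19.2 CPM in CP+EVs, 103 and 159 CPM in CP), Ly96 was 2.88-fold lower, and the scavenger receptor Cd36 was 8.04-fold higher (379 and 47.2 CPM). Of 11 cytokines and receptors 1 was higher, Il6 (308 CPM in CP+EVs and 34.3 CPM in CP), and 4 were lower, among them Osm (40.8 and 195 CPM). Of 14 transcription factor and feedback genes 5 were higher, among them Nfkbiz (1021 and 222 CPM), Tnfaip3 (653 and 231 CPM), Relb and Socs3, and 1 was lower. The median log2 ratio was 0.47 for that list and -1.17 for the SAA receptors, beside -0.20 over all genes, of which 21.5% were lower and 12.3% higher. Of 11 co-induced innate genes 3 were higher and 5 lower, the lower ones including S100a8 (9.51 and 582 CPM), S100a9, Timp1 and Pglyrp1. Of 10 iron-handling genes 2 were higher, the metallothioneins Mt2 (434 and 103 CPM) and Mt1 (1610 and 625 CPM), and 4 lower, among them Slc39a14 and Tfrc. Of 2 liver acute-phase genes, Trf (202 and 261 CPM) and C3 (205 and 264 CPM), none passed 1.5-fold. In mesothelial-like cells of CP+EVs, 11 of 14 co-induced genes were lower and 1, the complement gene C4b, was higher, and 5 of 6 SAA receptor genes were lower and none higher, beside 19.7% lower and 18.6% higher over all genes there. C4b is named here because it was the only one, after its value was seen.

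Genes with the pattern most like each member were ranked by Pearson correlation of log2(CPM + 1) over 17 points, a point being a class with at least 50 cells in a library, as a description. The points share libraries and free RNA, so no p is given. Among 4992 candidates, Saa3 was most like Cxcl5 (r = 0.90), Timp1 (0.90) and Elob (0.89), and Lcn2 most like Sfxn5 (0.87), Stfa2l1 (0.85) and S100a9 (0.84). Serpina3n was most like the collagen genes Col1a1 (0.97) and Col3a1 (0.97) and the growth factor Igf1 (0.94), and Cp most like Bicc1 (0.95), Gata6 (0.93) and Snhg18 (0.92). Hp was most like Ptgs2 (0.92), Emilin2 (0.86) and Prdx5 (0.85), and Steap4 most like Cyp7b1 (0.92), Pdpn (0.90) and Il33 (0.90). Saa1, with few UMIs, was most like Cyp7b1 (0.88), Morf4l2 (0.84) and Rcn3 (0.83). Among the members the closest pair was Serpina3n and Steap4 (0.89), and Saa3 was closer to Serpina3n (0.85), Hp (0.83) and Lcn2 (0.82) than to Cp (0.35).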

How the data were processed

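Raw UMI counts per gene and barcode were deposited by the authors for each library, per the file headers and the values. CASAVA 1.8, UMI-tools, Seurat and mm10 come from the submitters' processing notes, while the aligner, annotation and cell-calling rule were not found in these sources. The lowest barcode total was 501 UMIs. Of 43 repeated symbols, the entry with most UMIs was used. Barcodes under 200 genes or over 25% mitochondrial UMIs were dropped, 46 in CP+EVs and 98 in CP. Scrublet marked 0 cells, so doublets were not removed, and the libraries were not integrated.

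For clustering, each cell was scaled to 10000 UMIs and logged. From 2000 variable genes without the 9 members, 30 components, 15 neighbours and Leiden clustering at resolution 1 (scanpy 1.11.5, Python 3.11.15) gave 24 clusters. A class name needed 3 markers with a log2 fold above 1 over the median cluster in at least 10% of cells. Clusters in which an unrelated class led among the top 10 genes, or had at least 40% of its markers and a comparable score, were left unnamed as mixed. Names mean that cells are like that type, and the T cell class includes natural killer genes. Naming thresholds were chosen with the data in view, and the members and lists with earlier results of these data known.

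Within each library, UMIs were added up by class, and log2 ratios add 0.5 counts to each sum. Genes of a list count as measured at 20 CPM in 1 library and 20 UMIs in all. The text names all members, the 3 genes most like each in pattern, and up to 4 genes per list with the largest log2 ratios in fibroblasts and in clusters 7 and 5. The interval code was tested on simulated counts. No p-value was computed, since cells are not replicates. Alternatives covered cell filters, clustering, scaling, low-value filters, thinning and the class that measures free RNA.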

Additional observations from a re-analysis of the deposited data

How the results depend on the processing

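No paired analysis was possible because each group has 1 library. Of 548 alternative values of 74 results, 444 stayed within the counting interval or within 1.5 times the count and 104 moved. Only log2 ratios can change direction, since shares, levels and counts have no sign. Of the log2 ratios, 0 of 188 values by class and 0 of 70 over all kept cells changed direction. The log2 ratio of Saa3 over all cells ranged from -9.36 to -8.97 (-9.23 as reported). That of Lcn2, reported as -5.39, was -5.12 with acinar enzyme and Reg genes out of the totals, -5.08 as a mean over cells, -5.24 without neutrophils and -5.23 without acinar cells. As means over fibroblasts, Saa3 was -9.66 (-9.00 as reported) and Lcn2 -6.35 (-6.99). The mesothelial share of CP Saa3 UMIs, 36.96%, was 37.3% with at least 500 genes per cell, 36.1% with at most 10% mitochondrial UMIs, 36.5% with acinar, Reg and other abundant genes out of the variable genes and 39.5% without unnamed clusters. The neutrophil share of CP Lcn2 UMIs, 48.9%, was 51.1% with at most 10% mitochondrial UMIs, 50.5% at resolution 2 and 52.5% without unnamed clusters. The T cell level of Saa3 in CP, 11.4% of the library's, was 10.3% per cell and 13.1% in B cells, and that of Lcn2, 12.8%, was 16.6% in B cells. In mesothelial-like cells the log2 ratio of Cp was -0.19 at resolution 0.5, against -2.09 as reported, and the cause was not tested. T cells gave no value at resolutions 0.5 and 2, with the members among the variable genes or with at most 10% mitochondrial UMIs, and macrophages none at resolution 0.5, because fewer than 50 CP+EVs cells were so named. Removing neutrophils, acinar cells, unnamed clusters or shared barcodes was chosen after seeing the data. Depth limits Saa2, Orm1 and the CP+EVs levels of Saa3, which rest on 0, 1 and 109 UMIs.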

Other observations

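Barcodes that occur in both libraries held 0 of the 29 Saa1 UMIs of CP+EVs and 35 of the 222 of CP (15.8%). They held 2.75% of the Saa3 UMIs of CP+EVs and 1.66% of those of CP. Cluster 13, the mesothelial-like cluster of CP, also held 3 CP+EVs cells, which had 6 of the 109 Saa3 UMIs of that library. In CP neutrophils thinned to 1000 UMIs, Hp was present in 16.6% of 1310 cells with 0 Lcn2 UMIs, 23.4% of 505 cells with 1 or 2 and 35.6% of 379 cells with 3 or more. Saa3 was present in 22.1%, 23.4% and 23.0% of the same bins, with overlapping intervals. The unnamed cluster 0 of CP, with a median of 714 UMIs per cell, held 5.22% of the Saa3 UMIs at 1258 CPM.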
